A study of Homo sapiens with 12 samples.

Results

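ABC transporters are membrane proteins that use the energy of ATP to move drugs, lipids, metals and metabolites across cell membranes. The family was taken as every protein-coding gene in the expression tables whose symbol consists of ABC, a subfamily letter from A to G and a number, which gave 45 genes among the 58174 genes listed. Of these, 12 belonged to subfamily A, 9 to B, 11 to C, 4 to D, 1 to E, 3 to F and 5 to G. ABCC13 has such a symbol but is annotated as a pseudogene and was not counted. The cells were of the established glioblastoma lines U87 and U118, sorted as CD133-CD15- and kept with fetal bovine serum and BMP2. In each line, control cells (sensitive in the sample labels) were compared with aggregation cells (resistant), which had formed from cells that survived weeks of temozolomide (TMZ) at 50 μM, stayed arrested for a time and then divided again. mRNA-seq was performed on 3 libraries of each of the 4 groups.

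In background terms, subfamily B and C hold pumps that carry drugs out of the cell, among them ABCB1 (P-glycoprotein) and ABCC1 (MRP1), and subfamily G holds ABCG2 (BCRP). These pumps are known for multidrug resistance and for limiting drug entry into the brain. Subfamily A moves lipids, ABCA1 being the pump that loads cholesterol onto apolipoproteins. Most members of subfamily D serve peroxisomes, several B members sit in mitochondria, and ABCE1 and the ABCF proteins carry no substrate at all but act on ribosomes.

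Values were TPM (transcript levels corrected for transcript length and scaled to the same total in each library) as the authors deposited them. Libraries were compared on the log2(TPM + 1) scale, where a gene was called higher or lower if its adjusted p was under 0.05 and its log2 fold change reached 1 in either direction. The sources name no separate cultures behind the 3 libraries of a group, so p-values measure the spread between libraries, which may be technical. Depth was unknown, since TPM do not hold the number of reads. In bulk RNA, fewer cells of a kind and less RNA per cell cannot be told apart. Over the 16382 genes at 1 TPM in at least 3 of 12 libraries, the U118 aggregation libraries ranked genes less like U118 control cells (Spearman rho 0.808 to 0.839) than like U87 cells (0.895 to 0.913). Their levels lay nearer to U118 control than to U87 for 5616 of those genes (34.3%) and for 13 of 29 ABC genes (44.8%). Over all 45 ABC genes, rho was 0.874 to 0.909 with U118 control and 0.851 to 0.888 with U87. These 3 libraries thus stood apart from their own line, and whether they are U118 cells as labelled was not tested. Single genes differed in this respect. THY1 was at 51.2 to 104 TPM in the U118 aggregation libraries and under 1 TPM in all U87 libraries. APOE was at 0.509 to 0.721 TPM in U118 aggregation, 0.404 to 1.19 TPM in U118 control and 192 to 228 TPM in U87 libraries. ABCC2 was at 0.560 to 0.896 TPM in U118 aggregation, 0.439 to 0.628 TPM in U118 control and 23.3 to 41.0 TPM in U87 libraries. DCN and LUM instead lay within the U87 range. DCN was at 0.224 to 1.06 TPM in U118 aggregation, 32.9 to 39.6 TPM in U118 control and 0 to 1.94 TPM in U87 libraries. LUM was at 1.83 to 2.48 TPM in U118 aggregation, 18.5 to 29.8 TPM in U118 control and up to 5.77 TPM in U87 libraries. Every U118 value below rests on the label, since no U118 comparison could be made without the aggregation libraries. Mitochondrially encoded genes held 12.9% to 16.9% of the TPM in U87 control, 22.2% to 23.7% in U87 aggregation, 7.42% to 19.7% in U118 control and 13.2% to 29.9% in U118 aggregation libraries. Among the astrocyte markers, GFAP, SOX2, S100B and AQP4 were under 1 TPM in every library. The summed level of 7 fibroblast markers was 52.4 to 57.8 TPM in U87 control and 137 to 158 TPM in U87 aggregation libraries, and 705 to 959 TPM in U118 control and 177 to 360 TPM in U118 aggregation libraries. Of these markers, 4 of 4 tested were called higher in U87 and 5 of 6 lower in U118. The shares of all genes tested were 3.03% and 26.6%. THY1 was under 1 TPM in all U87 libraries and COL3A1 in all U118 libraries. The immune markers PTPRC, CD14 and AIF1 and the endothelial markers PECAM1 and CDH5 were under 1 TPM in every library. Of the others on those lists, CD68, also a lysosomal gene outside myeloid cells, was at 170.2 to 379 TPM, KDR reached 3.3998 TPM, ITGAM 1.45 TPM and VWF 1.12 TPM. The part of the fibroblast markers in the ABC results was not tested.

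Of the 45 ABC genes, 20 were at 1 TPM or more in all 12 libraries and 14 were below 1 TPM in all of them. ABCG8, which with ABCG5 exports plant sterols from liver and gut, was listed at 0 throughout. The ABCF genes led. ABCF2 had the highest mean over the 12 libraries (121 TPM), followed by ABCF1 (75.4 TPM) and ABCF3 (71.9 TPM). The next were the mitochondrial transporter ABCB8 (55.9 TPM) and the pump ABCC1 (45.3 TPM). Beside ABCG8, the genes under 1 TPM in every library were ABCA6, ABCA9, ABCA10, ABCA12, ABCB4, ABCB11, ABCC8, ABCC11, ABCC12, ABCD2, ABCG1, ABCG4 and ABCG5. Only ABCG2 of subfamily G reached 1 TPM in any library.

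**Figure D1:**
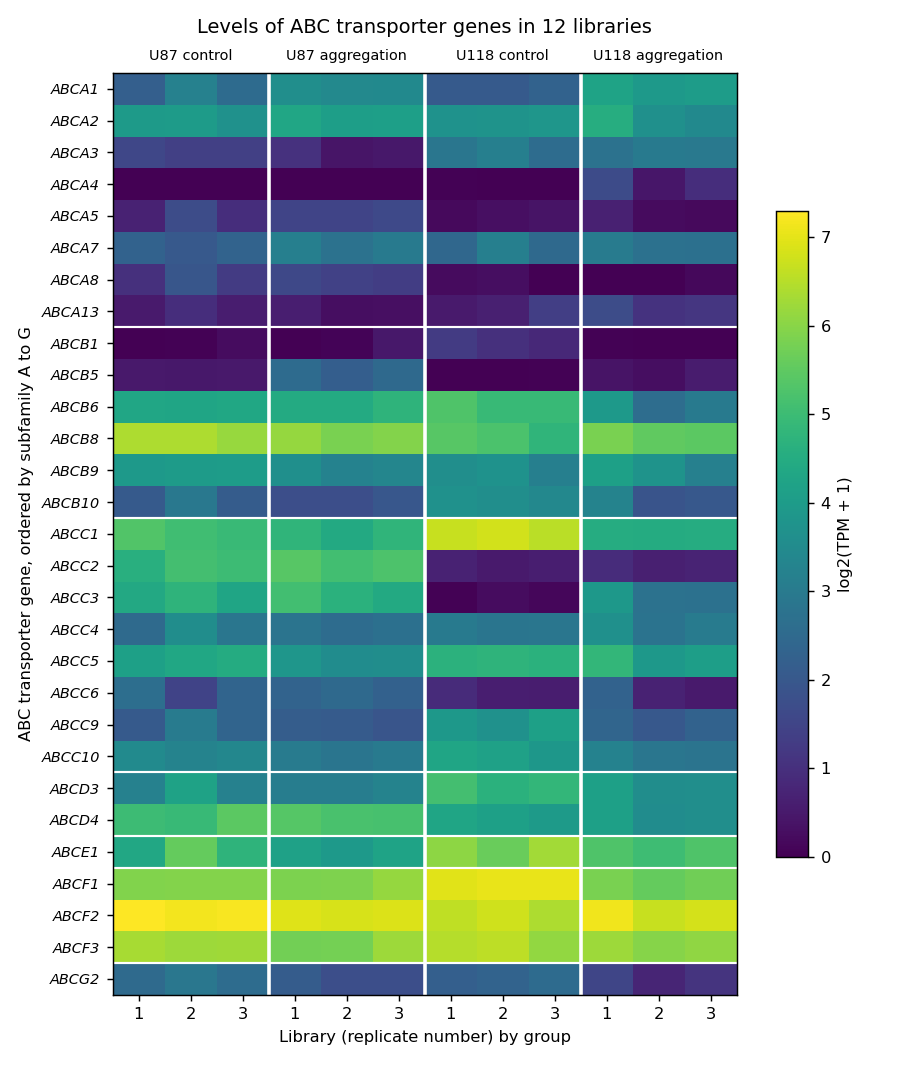
Level of 29 of the 31 ABC genes that reached 1 TPM in any library, as log2(TPM + 1) by colour, in each of the 12 libraries (columns, 3 per group); rows are ordered by subfamily and divided by white lines. ABCF1, ABCF2, ABCF3 and ABCB8 form the brightest rows, and ABCC2 is bright in the U87 columns (23.3 to 41.0 TPM) and dark in the U118 columns (0.439 to 0.896 TPM).

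The 250 bases before the first RefSeq start were available for 35 of the 45 genes (GRCh38.p14). Those with no entry in the table included ABCA4, ABCA8, ABCB4, ABCB5, ABCC1, ABCC3, ABCC8 and ABCG1. The letters GGGCGG (the GC box bound by Sp1, either strand) were found in the window of 14 of 17 genes at 1 TPM or more in all libraries (82.4%) and of 2 of 11 genes below 1 TPM in all (18.2%). Among all 27305 promoters the share was 42.3%. The median number of CG dinucleotides was 21 in the first set, 2 in the second and 11 over all promoters. The genes between both sets, 7 with an entry, included ABCB1 with 1 CG dinucleotide and ABCA5 with 42. GGGCGG itself contains CG, so its matches and the CG counts are not separate observations. CCAAT was found in 17.1% of the ABC windows and 33% of all, CACGTG in 11.4% and 6.49%, TGACNNNGC in 17.1% and 11%, ACGTG in 20% and 18.7%, and AGGTCA in 2.86% and 12.1%, each on either strand. CACGTG contains ACGTG, so their matches overlap. None of these shares was tested. These motifs, level classes and the windows printed were chosen after the levels had been seen. A match is a run of letters, and binding was not measured.

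The windows of 4 genes are printed because they span the range of levels and of change: ABCF1, abundant and lower in U118 aggregation cells, ABCB6, likewise lower, ABCA1, higher there, and ABCG8, listed at 0. Each runs 5′ to 3′ on the strand of the gene, with GGGCGG and CCAAT and CACGTG of either strand in capitals.
ABCF1, chr6:30571192-30571441, plus strand: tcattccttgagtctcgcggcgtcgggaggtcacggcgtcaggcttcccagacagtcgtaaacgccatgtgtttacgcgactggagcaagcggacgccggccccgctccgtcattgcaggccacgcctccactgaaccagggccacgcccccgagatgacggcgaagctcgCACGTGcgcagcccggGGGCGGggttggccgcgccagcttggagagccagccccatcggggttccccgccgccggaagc
ABCB6, chr2:219218959-219219208, minus strand: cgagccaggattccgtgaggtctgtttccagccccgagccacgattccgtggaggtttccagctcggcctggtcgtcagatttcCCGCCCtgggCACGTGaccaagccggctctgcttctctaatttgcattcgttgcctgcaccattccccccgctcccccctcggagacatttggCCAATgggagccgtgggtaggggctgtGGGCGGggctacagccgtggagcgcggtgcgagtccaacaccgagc
ABCA1, chr9:104928156-104928405, minus strand: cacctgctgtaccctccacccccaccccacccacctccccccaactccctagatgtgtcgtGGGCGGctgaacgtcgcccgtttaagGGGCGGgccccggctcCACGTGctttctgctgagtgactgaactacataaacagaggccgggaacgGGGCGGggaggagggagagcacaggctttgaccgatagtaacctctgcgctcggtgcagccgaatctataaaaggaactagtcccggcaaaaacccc
ABCG8, chr2:43838721-43838970, plus strand: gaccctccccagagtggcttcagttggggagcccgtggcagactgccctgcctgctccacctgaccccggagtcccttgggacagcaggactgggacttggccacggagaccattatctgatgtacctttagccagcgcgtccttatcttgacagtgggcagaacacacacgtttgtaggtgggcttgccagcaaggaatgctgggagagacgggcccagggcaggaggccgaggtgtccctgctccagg
The windows of ABCF1, ABCB6 and ABCA1 each held 1 CACGTG, and they held 1, 2 and 3 GC boxes. The window of ABCG8 held none of the capitalised motifs and 8 CG dinucleotides. It overlaps that of ABCG5, its neighbour on the other strand.

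Summed over subfamilies, the TPM of aggregation cells moved unequally. The lipid transporters of subfamily A summed to 25.1 to 34.2 TPM in U87 control and 35.7 to 43.4 TPM in U87 aggregation libraries, and to 27.0 to 32.4 TPM and 39.9 to 58.3 TPM in U118. Neither line's groups overlapped. These sums include ABCA1, which in U118 was at 3.16 to 3.89 TPM in control and 14.2 to 18.0 TPM in aggregation libraries. The U118 groups of ABCA2, ABCA3, ABCA7 and ABCA13 overlapped, so the U118 rise is not read as one of the lipid transporters in general. Subfamily C, with the MRP pumps, summed to 154 to 173 TPM in U118 control and 57.1 to 92.6 TPM in U118 aggregation libraries, 42.8% of the control mean. Most of that fall was ABCC1, without which subfamily C summed to 62.2 to 66.0 TPM and 35.8 to 70.5 TPM, with overlap and at 76.6% of the control mean. In U87 the subfamily C sums overlapped (122 to 139.9 TPM and 108 to 135 TPM). Subfamily G, in effect ABCG2, lay at 50.8% of the control mean in U87 and 31.0% in U118, with no overlap in either line. ABCE1 lay at 52.8% and 56.9%, and the ABCF genes at 83.9% and 76.6%, also without overlap. The sums are given as a description, with no test. Of all single genes tested, 39.8% in U87 and 42.9% in U118 lay below control without overlap, and 13.6% and 15.7% above. Without the mitochondrially encoded genes the U87 groups of subfamily F and B overlapped, and so did the U118 groups of subfamily D.

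Of the 45 ABC genes, 28 could be tested in U87 and 24 in U118, 23 of them in both. The others reached 1 TPM in fewer than 3 libraries of the line. In U87, 1 of the 28 was called higher (3.57%, against 3.03% of all genes tested) and 0 were called lower (against 7.79%). At an unadjusted p under 0.05, limma found 3 of the 28 higher and 11 lower in U87, together 50% of them against 48.5% of all genes tested, and no other tool was run. In U118, 3 of 24 were called higher (12.5%, against 8.64%) and 8 lower (33.3%, against 26.6%). These shares lay near those of all genes, so the counts are no result about the family. The ABC gene called in U87, ABCB5, was not tested in U118, so no ABC gene could be called in both lines. The median log2 fold change was -0.31 in U87 and -0.33 in U118, where that of all genes tested was -0.24 and -0.52. Dividing each library by its median ratio to the other libraries of the fit moved the all-gene medians to -0.02 and -0.05. The U118 calls over all genes then went from 1341 higher and 4134 lower to 2284 and 2025 (14.7% and 13%), and those of ABC genes to 4 higher and 3 lower. In U87 this scaling called 2 ABC genes higher (4.76% of all genes) and 0 lower (3.92%), with 5 lower at an unadjusted p under 0.05. With trends on transcript length and GC content removed, 3 were called higher in U87 (5.04%) and 0 lower (3.64%), and 5 higher (13.6%) and 2 lower (11.4%) in U118. Whether the library groups overlapped was counted separately. In U87, 5 of the 28 lay above control without overlap (13.6% of all genes) and 11 below (39.8%). In U118 it was 4 of the 24 above (15.7%) and 9 below (42.9%).

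**Figure D2:**
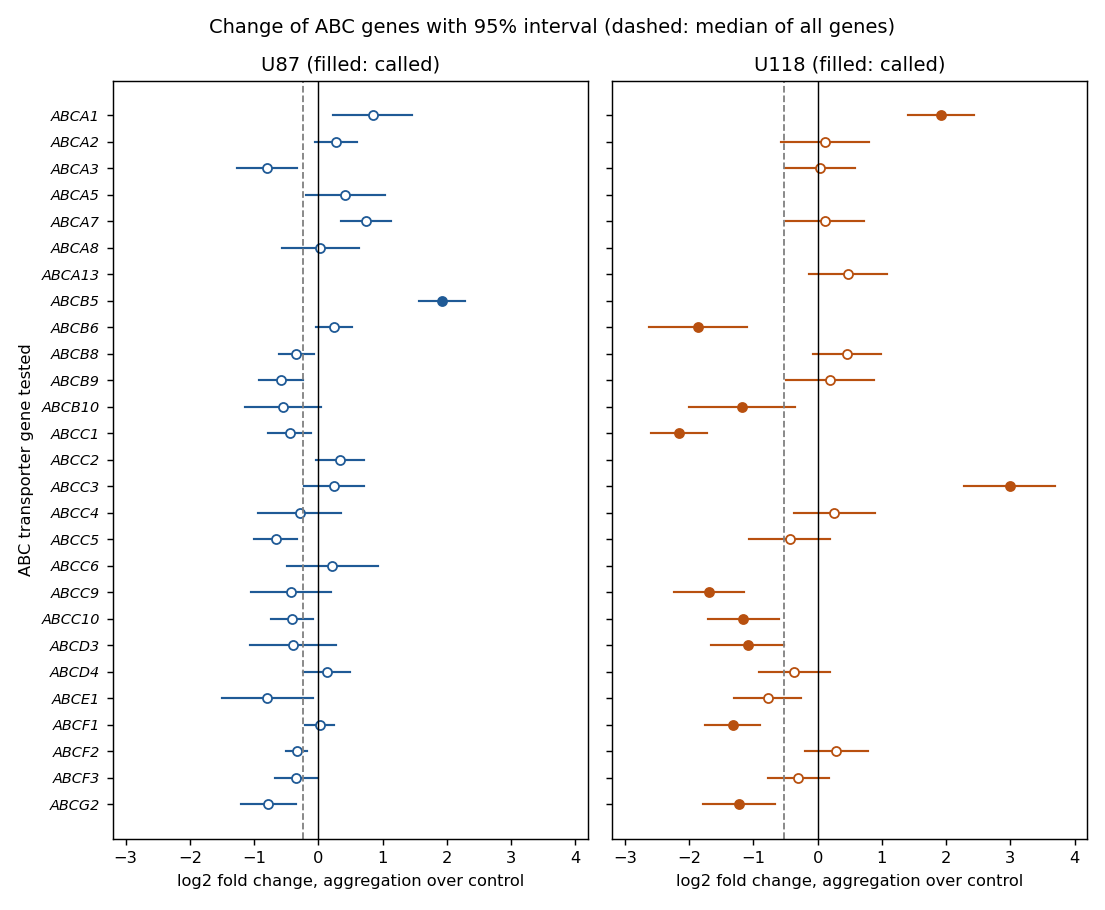
Log2 fold change, aggregation over control cells, of 26 of the 28 ABC genes tested in U87 (left) and 22 of the 24 in U118 (right), on the log2(TPM + 1) scale; lines are 95% intervals from limma, filled points were called, and the dashed line is the median of all genes tested (-0.24 and -0.52). ABCB5 is the single filled point in U87, and ABCC3 and ABCA1 lie to the right and 8 filled genes to the left in U118.

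None of the drug efflux pumps ABCB1, ABCC1 and ABCG2 was called higher in aggregation cells of either line, and ABCC1 and ABCG2 were called lower in U118. ABCC1 (ENSG00000103222, chr16:15949577-16143074, plus strand), which exports glutathione conjugates and several cytostatics, was at 101, 111 and 91.6 TPM in U118 control and at 22.1, 21.3 and 21.9 TPM in U118 aggregation libraries. All aggregation libraries lay far below all controls, and the mean was 4.64-fold lower (101 ± 9.48 TPM against 21.8 ± 0.421 TPM, SD, n = 3). The log2 fold change was -2.16 (SE 0.19, adjusted p = 2.86e-05, limma, Benjamini-Hochberg), and the call held in all 16 alternatives run. In U87, ABCC1 was at 38.5, 32.6 and 30.03 TPM in control and at 26.6, 20.7 and 26.1 TPM in aggregation libraries. The U87 groups did not overlap, but the log2 fold change of -0.45 (SE 0.14, adjusted p = 0.0444, limma, Benjamini-Hochberg) was under the size set for a call. The change in U118 was lower than that in U87 by 1.71 on the log2 scale.

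ABCG2 (ENSG00000118777, chr4:88090264-88231322, minus strand), the pump also used to mark side-population cells, was at 3.59, 4.03 and 4.91 TPM in U118 control and at 1.89, 0.699 and 1.16 TPM in U118 aggregation libraries. In U87 it was at 4.696, 6.38 and 4.94 TPM in control and at 3.32, 2.39 and 2.39 TPM in aggregation libraries. Aggregation libraries lay below control libraries in both lines. ABCG2 fell by 1.23 on the log2 scale in U118 (SE 0.25, adjusted p = 0.00336, limma, Benjamini-Hochberg). That call was lost under median-ratio scaling (-0.87) and with the trends on length and GC content removed (-0.40). In U87 the log2 fold change was -0.78 (SE 0.18, adjusted p = 0.0136, limma, Benjamini-Hochberg), which is under the size set, and the difference between the lines was not called (-0.45, 95% interval -1.13 to 0.23).

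ABCB1 (ENSG00000085563, chr7:87503633-87713323, minus strand) was hardly detected. It was at 1.39, 1.03 and 0.783 TPM in U118 control and at 0.0204, 0.00678 and 0 TPM in U118 aggregation libraries, and at 0, 0.0221 and 0.189 TPM in U87 control and 0, 0.0568 and 0.397 TPM in U87 aggregation libraries. The U118 groups did not overlap, while the U87 groups did. ABCB1 passed the filter in neither line. With no filter it was called lower in U118 (log2 fold change -1.02, adjusted p = 0.00404, limma, Benjamini-Hochberg), and in U87 its log2 fold change was 0.09. ABCC4 (MRP4, an exporter of cyclic nucleotides and prostaglandins) was at 4.71, 10.9 and 6.26 TPM in U87 control and 6.06, 4.93 and 5.43 TPM in U87 aggregation libraries, and at 6.97, 6.195 and 6.34 TPM in U118 control and 11.8, 5.897 and 7.23 TPM in U118 aggregation libraries. Its groups overlapped in both lines, with log2 fold changes of -0.29 (95% interval -0.94 to 0.36) and 0.26 (-0.37 to 0.89). ABCC4 was called higher in U118 under the removal of trends with length and GC content (1.14), chosen after the data were seen.

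Among genes higher in aggregation cells, ABCA1 (ENSG00000165029, chr9:104781002-104928237, minus strand) was at 3.19, 3.16 and 3.89 TPM in U118 control and at 17.97, 14.2 and 15.2 TPM in U118 aggregation libraries. It rose by 1.93 on the log2 scale in U118 (SE 0.23, adjusted p = 0.000166, limma, Benjamini-Hochberg), 4.63-fold in mean TPM, and was called in all 15 alternatives. In U87 it was at 3.59, 8.26 and 4.81 TPM in control and at 11.1, 9.78 and 10.002 TPM in aggregation libraries, again without overlap. The U87 log2 fold change of 0.85 (SE 0.26, adjusted p = 0.0391, limma, Benjamini-Hochberg) was under the size set. It was called in U87 without control replicate 2 (1.13), its highest control library, under median-ratio scaling (1.08), with the length and GC trends removed (1.10) and with no fold change threshold. Of 14 genes acting beside ABCA1 and ABCG1 in sterol handling, 12 were tested in U118. Calls were 3 higher and 2 lower (median 0.47), against 8.64% and 26.6% of all genes tested. SCARB1, a receptor for HDL, went from 14.1, 16.96 and 13.5 TPM in U118 control to 46.3, 53.9 and 51.6 TPM in U118 aggregation libraries (log2 fold change 1.71, adjusted p = 0.000195, limma, Benjamini-Hochberg). The phospholipid transfer protein gene PLTP (1.00) and the sterol regulator SREBF1 (1.23) were also called higher, while RXRB (-1.45), a partner of the sterol-sensing LXR receptors, and MYLIP (-1.29), a target gene of them, were called lower. Under median-ratio scaling limma called 6 higher and 0 lower, against 14.7% and 13% of all genes tested. At an unadjusted p under 0.05, 2 of the 12 were then lower. In U87, 13 were tested with limma and 0 were called (3 higher and 2 lower at an unadjusted p under 0.05), with SCARB1 at a log2 fold change of -0.96.

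ABCC3 (MRP3, an exporter of glucuronides and bile salts) was at 0.0222, 0.174 and 0.0903 TPM in U118 control and at 13.7, 5.75 and 5.603 TPM in U118 aggregation libraries. The log2 fold change was 2.99 (SE 0.31, adjusted p = 8.14e-05, limma, Benjamini-Hochberg), and on the log2(TPM + 1) scale it understates the change of a gene so low in control. ABCC3 passed the U118 filter only through the aggregation libraries, so that it was not tested when one of them was left out and the filter applied again. In U87 it was at 20.1, 25.7 and 18.7 TPM in control and 32.8, 24.1 and 20.6 TPM in aggregation libraries, which overlapped (0.24, SE 0.20). ABCB5, known as a marker of progenitor-like cells in skin and melanoma, was the single ABC gene called in U87. It was at 0.401, 0.384 and 0.402 TPM in U87 control and at 4.89, 3.498 and 4.63 TPM in U87 aggregation libraries (log2 fold change 1.93, SE 0.15, adjusted p = 0.000199, limma, Benjamini-Hochberg). Like ABCC3, it passed the filter only through the aggregation group. When an aggregation library was left out and the filter applied again, it was no longer tested. Both genes were therefore tested only because they were high in one group, and their calls are read as a description of these values. In U118 it was at 0, 0 and 0.0227 TPM in control and 0.309, 0.212 and 0.461 TPM in aggregation libraries and was not tested.

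Of the peroxisomal transporters, ABCD3, which imports branched and dicarboxylic acids, was at 33.6, 24.4 and 27.2 TPM in U118 control and 16.8, 10.9 and 11.1 TPM in U118 aggregation libraries (log2 fold change -1.09, SE 0.25, adjusted p = 0.00665, limma, Benjamini-Hochberg). The ABCD3 call was lost in 5 of 16, among them median-ratio scaling and the fits without control replicate 1 or aggregation replicate 2. Of 7 genes for peroxisomal import and oxidation, limma called 0 in either line. At an unadjusted p under 0.05, 2 were lower in U87 and 0 in either direction in U118.

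Among mitochondrial and porphyrin transporters, ABCB6 was at 37.8, 29.3 and 29.4 TPM in U118 control and 14.2, 5.104 and 6.93 TPM in U118 aggregation libraries. It fell by 1.87 on the log2 scale (SE 0.34, adjusted p = 0.00189, limma, Benjamini-Hochberg), a call kept in all 16 alternatives. Aggregation replicate 1 stood above the other 2, and without it the log2 fold change was -2.24. In U87 ABCB6 was at 18.97, 18.5 and 19.3 TPM in control and 20.8, 21.2 and 25.9 TPM in aggregation libraries (0.24, SE 0.12). ABCB10, which acts in heme synthesis, was at 11.9, 11.1 and 9.55 TPM in U118 control and 8.57, 2.75 and 3.002 TPM in U118 aggregation libraries (log2 fold change -1.17, SE 0.36, adjusted p = 0.0244, limma, Benjamini-Hochberg). That call was lost in 8 of 15 alternatives, including each fit without a control library or without aggregation replicate 2 or 3. Of 11 genes of mitochondrial iron and heme handling, limma called 1 higher (GLRX5, 1.05) and 0 lower in U118, and 0 higher and 1 lower (SLC25A38, -1.23) in U87. Among all genes tested, 8.64% were called higher and 26.6% lower in U118, and 3.03% and 7.79% in U87. At an unadjusted p under 0.05, 2 of the 11 genes were higher and 3 lower in U118, and 0 and 7 in U87. Under median-ratio scaling limma called 3 higher in U118 (GLRX5, SLC25A39 and ISCU) and 0 lower, and 0 in U87. The shares of all genes in U118 were then 14.7% higher and 13% lower. At an unadjusted p under 0.05, 6 of the 11 genes were then higher and 0 lower in U118, and 2 and 3 in U87.

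Of the remaining C members, ABCC9 (SUR2), the regulatory subunit of ATP-sensitive potassium channels, was at 13.8, 12.02 and 16.8 TPM in U118 control and 4.17, 3.05 and 3.87 TPM in U118 aggregation libraries. It fell by 1.69 on the log2 scale (SE 0.24, adjusted p = 0.000493, limma, Benjamini-Hochberg), without overlap. KCNJ8, the pore subunit that pairs with it, went from 3.15, 4.46 and 3.34 TPM in U118 control to 0, 0.0797 and 0.0293 TPM in U118 aggregation libraries (-2.16, adjusted p = 2.17e-05, limma, Benjamini-Hochberg). KCNJ8 passed the filter only through the control libraries, where it is high, so its call is read as a description of these values. ABCC10 (MRP7) was at 18.6, 17.2 and 13.6 TPM in U118 control and 8.33, 6.23 and 5.99 TPM in U118 aggregation libraries (-1.16, SE 0.24, adjusted p = 0.00410, limma, Benjamini-Hochberg). ABCC2 (MRP2), an exporter of conjugates into bile, was at 23.3, 33.7 and 31.2 TPM in U87 control and 41.01, 32.98 and 37.1 TPM in U87 aggregation libraries, and under 1 TPM in every U118 library. ABCC6, which matters for pyrophosphate release, was at 1.77 to 5.22 TPM in U87 and 0.432 to 3.90 TPM in U118 libraries. The pseudogenes ABCC6P1 (0.232 to 1.94 TPM) and ABCC6P2 (0.241 to 2.18 TPM) are near copies of it. Its level is uncertain, since how reads were shared among the 3 genes was not tested.

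Of the ribosome-associated genes ABCE1, ABCF1, ABCF2 and ABCF3, only ABCF1 was called in U118, and differences among them were not tested. ABCF1, a factor in translation initiation, was at 124, 131 and 131 TPM in U118 control and 55.7, 46.6 and 51.04 TPM in U118 aggregation libraries. It fell by 1.32 on the log2 scale (SE 0.19, adjusted p = 0.000522, limma, Benjamini-Hochberg). In U87 ABCF1 was at 59.7, 60.9 and 59.9 TPM in control and 57.1, 57.7 and 69.1 TPM in aggregation libraries (0.02, SE 0.10). ABCF2 was at 95.96, 109 and 82.9 TPM in U118 control and 140.4, 102 and 113 TPM in U118 aggregation libraries, with overlap (0.29, SE 0.22). In U87 ABCF2 was at 156, 144 and 150.0 TPM in control and 122, 114 and 119.6 TPM in aggregation libraries (-0.34, SE 0.07). ABCF3 was at 88.8, 94.6 and 68.8 TPM and 73.7, 61.7 and 67.02 TPM in the U118 groups and at 79.5, 73.4 and 74.8 TPM and 52.7, 54.2 and 73.8 TPM in the U87 groups. It was called in neither line. The ABCF1 call was lost under median-ratio scaling (-0.77) and with the length and GC trends removed (-0.93). Of 9 ribosome recycling and initiation partners, limma called 0 higher and 1 lower (EIF2S1, -1.55) in U118, and 0 in U87. The shares of all genes tested in U118 were 8.64% higher and 26.6% lower. At an unadjusted p under 0.05, 5 of the 9 partners were lower in U118 and 4 in U87, and 0 were higher. Under median-ratio scaling this became 2 higher and 1 lower in U118, and 1 higher and 2 lower in U87.

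Family members outside the naming rule were read alongside. TAP1 and TAP2, which feed peptides to MHC class I, were tested in both lines. TAP2 went from 89.98, 98.7 and 70.4 TPM in U118 control to 38.9, 21.4 and 30.2 TPM in U118 aggregation libraries (-1.51, adjusted p = 0.00152, limma, Benjamini-Hochberg), a call lost under median-ratio scaling (-0.96). In U87 it was at 21.4, 23.4 and 40.4 TPM in control and 13.8, 13.2 and 12.7 TPM in aggregation libraries, without overlap (-0.99, adjusted p = 0.0148, limma, Benjamini-Hochberg), just under the size set. Of 10 transcription factors known to act on drug pump genes, 8 were tested in each line. In U118, 0 were called higher and 3 lower (against 8.64% and 26.6% of all genes tested), among them EPAS1 (-1.14) and HIF1A (-1.41). At an unadjusted p under 0.05, 5 of the 8 were lower. Median-ratio scaling left 0 called by limma (3 lower at an unadjusted p under 0.05). In U87 limma called 0 (2 higher at an unadjusted p under 0.05). Under median-ratio scaling 2 were called higher in U87, against 4.76% of all genes tested.

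Because scaling mattered, the U118 calls were set side by side under 3 scalings. ABCC1 and ABCB6 were called lower and ABCA1 higher under the deposited TPM, median-ratio scaling and removal of the length and GC trends alike. ABCC3 was called higher under all 3 too. It was tested only through the aggregation libraries, where it is high, so its calls are a description of these values. ABCC9 was called under deposited TPM and median-ratio scaling and was at -0.67 with the trends removed. ABCB10, ABCC10, ABCD3, ABCF1 and ABCG2 were called under the deposited TPM alone of these 3. Without the mitochondrially encoded genes, ABCC10 (-0.99) and ABCD3 (-0.91) were also no longer called.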

How the data were processed

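mRNA-seq of U87 and U118 control and aggregation cells (3 libraries in each of 4 groups) was read from tables in which the authors deposited TPM values per gene, 1 table per cell line. The submitters' processing notes name FastQC 0.11.2, Trimmomatic 0.36, HISAT2 2.0, bedtools 2.26.0 and GRCh38; the quantification tool and annotation are not given in the sources used here. Groups came from the sample labels. Of the 58174 Ensembl identifiers, 57836 are in GENCODE release 29 (Ensembl release 94, GRCh38), which gave the gene positions, and promoters came from RefSeq (GRCh38.p14).

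For each line a linear model of log2(TPM + 1) was made in limma 3.58.1 (R 4.3.3; lmFit, then eBayes with a trend) over genes at 1 TPM or more in at least 3 libraries of the fit, with Benjamini-Hochberg adjustment over all genes tested. An interaction model of the 12 libraries gave the difference between the lines. Levels were not tested between lines, whose tables were deposited separately. Genes described one by one were ABCB1, ABCC1, ABCG2, ABCA1, ABCC4, the ABC genes called in a fit and the 3 with the highest mean. A few genes that enter the fits and counts are not reported here by name or drawn in the figures. The genes and lists were chosen with earlier results of these data known.

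Alternatives were other pseudocounts (0.1 and 0.001), median-ratio scaling, TPM without mitochondrially encoded genes, no filter, a filter at a mean of 10 TPM, a replicate block, eBayes without trend, calls by adjusted p alone, and leave-one-out fits. Added after seeing the data were the removal of lowess trends (span 0.3) with transcript length and GC content, and leaving out each library with the genes of all libraries kept. The latter was added because the filter, applied again, took ABCB5 out of the U87 test. In simulated data, 200 genes were given a log2 change of 2, drawn among genes well above the filter. The fit called 179 in U87 (13799 genes, 4 false calls), 166 in U118 (15052 genes, 7 false calls) and 153 in the interaction (15195 genes, 10 false calls). Tables and figures were made with pandas 2.3.3 and matplotlib 3.10.9 in Python 3.11.15.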

Additional observations from a re-analysis of the deposited data

Results flagged for a closer look

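The change from control to aggregation cells differed between the lines for 8 of 29 ABC genes tested in the interaction (limma over 12 libraries, Benjamini-Hochberg). The difference was called positive for 3 of the 29 (10.3%, against 12% of all genes tested) and negative for 5 (17.2%, against 18.5%). These counts are near those of all genes. Values are the log2 change in U118 minus that in U87.

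Among them, the differences were positive for ABCC3 at 2.75 (SE 0.42, adjusted p = 0.000232) and ABCA1 at 1.08 (SE 0.34, adjusted p = 0.0235). They were negative for ABCB6 at -2.11 (SE 0.39, adjusted p = 0.000910), ABCC1 at -1.71 (SE 0.21, adjusted p = 4.59e-05) and ABCB5 at -1.53 (SE 0.19, adjusted p = 3.95e-05). ABCF1 at -1.34 (SE 0.18, adjusted p = 8.60e-05) and ABCC9 at -1.26 (SE 0.35, adjusted p = 0.0131) were negative too.

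ABCC3, ABCB6, ABCC1 and ABCF1 kept the call in all 22 alternatives. ABCA1 kept it in 15 of 21. ABCC9 kept it in 20 of 21 and lost it with length and GC trends removed (-0.56). ABCB5 reached 1 TPM in the U87 aggregation libraries alone and so was tested only through the group where it is high. Its call was lost with the trends removed (-0.90) and with a pseudocount of 0.001. The ABCA1 difference was lost without U87 control replicate 2, U87 aggregation replicate 2 or 3, U118 control replicate 1 or 2, or U118 aggregation replicate 1 (0.80 at the lowest).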

How the results depend on the processing

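Depth was unknown, so a level near 0 could not be given a limit, and pseudocount and filter decide what is seen of ABCB1, ABCB5 and ABCC3. Of the alternatives run on counts, medians and subfamily sums, 282 kept the value within its limits and 50 moved it; except where stated, the cause was not tested.

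In U87 the ABC genes called higher (1) were 0 with a mean of at least 10 TPM, 2 under median-ratio scaling, 3 with no fold change threshold and 3 with length and GC trends removed. They were 0 to 2 when a library was left out, and 0 for each aggregation library, where ABCB5 failed the filter. Those called lower (0) were 1 with either other pseudocount, 7 with no fold change threshold and 0 to 1 when a library was left out (1 without control replicate 1). The U87 median (-0.31) was 0.010 with no filter, -0.068 under median-ratio scaling, -0.19 without mitochondrially encoded genes, -0.027 with length and GC trends removed and -0.36 to -0.093 when a library was left out.

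In U118 the ABC genes called higher (3) were 1 with a mean of at least 10 TPM and 5 with length and GC trends removed. Those called lower (8) were 5 with a mean of at least 10 TPM, 3 under median-ratio scaling and 2 with length and GC trends removed. The median (-0.33) was 0.024 with no filter, 0.21 under median-ratio scaling, 0.23 with length and GC trends removed and -0.55 to -0.24 when a library was left out, lowest without aggregation replicate 1.

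For the difference between the lines, those higher (3) were 1 with a mean of at least 10 TPM, 5 under median-ratio scaling, 6 with no fold change threshold, 6 with length and GC trends removed and 1 to 4 when a library was left out (1 without U87 aggregation replicate 2). Those lower (5) were 3 with a mean of at least 10 TPM and 3 with length and GC trends removed. The median (-0.14) was 0.043 with a pseudocount of 0.001, 0.020 with a mean of at least 10 TPM, 0.046 under median-ratio scaling, 0.38 with length and GC trends removed and -0.28 to 0.0081 when a library was left out.

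Without mitochondrially encoded genes the log2 ratios of the summed TPM were -0.12, 0.13 and -0.12 for subfamilies B, D and F in U87 (from -0.26, -0.01 and -0.25) and -0.14 and -0.19 for D and F in U118 (from -0.33 and -0.38).

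Signs turned for values that were not called: ABCG2 in the difference between the lines (0.084 with length and GC trends removed), ABCC4 in U87 (0.0092 likewise, and -0.53 to 0.0044 when a library was left out, highest without control replicate 2), ABCF1 in U87 (-0.068 to 0.068 when a library was left out), lowest without aggregation replicate 3, ABCF3 in U118 (0.25 under median-ratio scaling) and ABCF3 in the difference (-0.014 with trends removed, and -0.095 to 0.19 when a library was left out). ABCB5, called lower in the difference, turned to 3.33 with a pseudocount of 0.001 (adjusted p = 0.0989, limma, Benjamini-Hochberg), where its U118 control libraries at 0 decide the value.

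Same-numbered libraries correlated at 0.01, -0.07 and -0.04 in U87 and 0.14, 0.05 and 0.10 in U118 in their deviations from the group means. Differently numbered libraries correlated at -0.06 to 0.08 in U87 and at -0.11 to 0.04 in U118, there below every same-numbered value. The main fits did not pair the libraries, and whether the numbers pair those of U118 was not tested. With a replicate block, the U118 genes at an unadjusted p under 0.05 (limma) went from 9025 to 9576. With the replicate block the ABC calls were 1 higher and 0 lower in U87, 3 and 8 in U118 and 3 and 5 in the difference.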

Other observations

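Among lipid transporters that were not called, ABCA3, which packs surfactant lipids, was at 1.94, 1.603 and 1.602 TPM in U87 control and 1.05, 0.3299 and 0.387 TPM in U87 aggregation libraries, without overlap, and at 6.31, 7.83 and 5.03 TPM and 5.77, 7.03 and 6.76 TPM in the U118 groups, which overlapped. ABCA7, which moves phospholipids, was at 3.89, 3.14 and 3.99 TPM in U87 control and 7.83, 5.75 and 6.95 TPM in U87 aggregation libraries (log2 fold change 0.74, SE 0.17, adjusted p = 0.0123, limma, Benjamini-Hochberg), under the size set for a call. ABCA4, the retinal transporter of photoreceptors, was listed at 0 in all U87 libraries. In U118 it was at 0.0345, 0 and 0.0126 TPM in control and 2.16, 0.3597 and 0.938 TPM in aggregation libraries, too low for the filter.

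ABCE1, which splits ribosomes for recycling, was at 19.6, 47.03 and 26.1 TPM in U87 control and 16.99, 14.2 and 17.7 TPM in U87 aggregation libraries, and at 65.3, 48.2 and 76.4 TPM and 38.3, 31.8 and 37.95 TPM in the U118 groups. Aggregation libraries lay below control in both lines, with log2 fold changes of -0.80 (SE 0.30) and -0.78 (SE 0.23) and adjusted p = 0.0734 and 0.0210 (limma, Benjamini-Hochberg), neither of them a call. Among mitochondrial transporters, ABCB8 was at 82.6, 82.8 and 70.97 TPM in U87 control and 70.2, 55.5 and 60.7 TPM in U87 aggregation libraries, and at 41.5, 36.5 and 26.5 TPM and 55.3, 44.8 and 42.9 TPM in the U118 groups. The libraries of neither line overlapped, and aggregation cells lay lower in U87 and higher in U118. Under median-ratio scaling ABCB8 was called higher in U118 (1.00) and in the difference between the lines (1.03). ABCA3 was called higher in that difference under median-ratio scaling (1.19), without mitochondrially encoded genes (1.04) and with length and GC trends removed (1.01), and ABCA7 was called higher in U87 with the trends removed (1.03). The ABCE1 log2 fold change in U118 was -0.23 under median-ratio scaling and 0.05 with the trends removed.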
